A study of Xenopus tropicalis with 12 samples.

Results

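The gene described here is dio3, which encodes the type 3 iodothyronine deiodinase. It is the single feature XLOC_014986, 1 of 33875 features in the deposited count table. It was taken by this identifier, which a supplementary table of the study pairs with the symbol dio3. That table lists genes called as T3 regulated in WT brain, so a response of dio3 in WT was built into the way its name became known here. Every comparison of dio3 between genotypes that uses the WT T3 libraries shares this limit. The study also counts dio3 among the genes that its RNA-seq called induced by T3 in both genotypes. The induction in thra mt-exon4 was thus known beforehand from these same libraries. Its p value and rank are therefore a description. The libraries came from the preoptic area/thalamus/hypothalamus of Xenopus tropicalis tadpoles at NF stage 54, with 5 tadpoles pooled per library and 3 libraries per group. The 4 groups were thra mt-exon4 tadpoles in 5 nM T3, thra mt-exon4 tadpoles in vehicle, WT tadpoles in 5 nM T3 and WT tadpoles in vehicle, each for 16 h in the aquarium water. Vehicle was dilute NaOH in the sample labels and in the treatment protocol, while the series' design text names DMSO. The thra mt-exon4 tadpoles were homozygous offspring of heterozygous frogs of 1 TALEN line, whose TRα is predicted to be nonsense from just before its DNA binding domain onward, and the mutation is present in the whole animal. The WT frogs came from a supplier, and whether WT tadpoles shared parents with the mutants is not given in the sources used here, so line and genotype cannot be told apart.

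Deiodinases set how much active hormone a cell sees. The type 2 enzyme, encoded by dio2, makes T3 from its precursor T4, whereas the type 3 enzyme removes an iodine from the inner ring of T4 and T3 and leaves products that bind the receptors poorly. The enzyme is a selenoprotein and is known in tadpoles and mammals as a brake on T3 action, and in tadpole tissues its mRNA is known to be induced by T3 itself. T3 acts through the receptors TRα (thra) and TRβ (thrb), which recruit corepressors when empty and coactivators when T3 is bound.

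The question put to dio3 was whether its induction by T3 needs an intact thra gene. In thra mt-exon4 brain, dio3 mRNA stood at 7.58, 7.70 and 7.16 CPM (expected counts scaled by library size, with TMM factors) in the 3 T3 libraries, against 1.84, 2.68 and 1.77 CPM in the 3 vehicle libraries. In WT brain it stood at 11.0, 9.69 and 11.9 CPM in the T3 libraries, against 3.42, 2.17 and 2.67 CPM in the vehicle libraries. The T3 and vehicle libraries did not overlap in either genotype. Among all 22018 features tested, 7.7% were higher without overlap in T3 in thra mt-exon4, and 16% were in WT. By edgeR's quasi-likelihood test dio3 rose 3.58-fold in thra mt-exon4 (95% interval 2.74 to 4.68; log2 fold change 1.84 ± 0.18 SE, adjusted p = 0.000789). It rose 3.95-fold in WT (95% interval 3.03 to 5.14; log2 fold change 1.98 ± 0.18 SE, adjusted p = 2.28e-05, edgeR). With 3 libraries against 3, an exact two-sided permutation test of the dio3 value alone gave p = 0.1 in each genotype, which is the smallest it can give. In bulk tissue, more cells with dio3 mRNA and more dio3 mRNA per cell cannot be told apart.

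**Figure D1:**
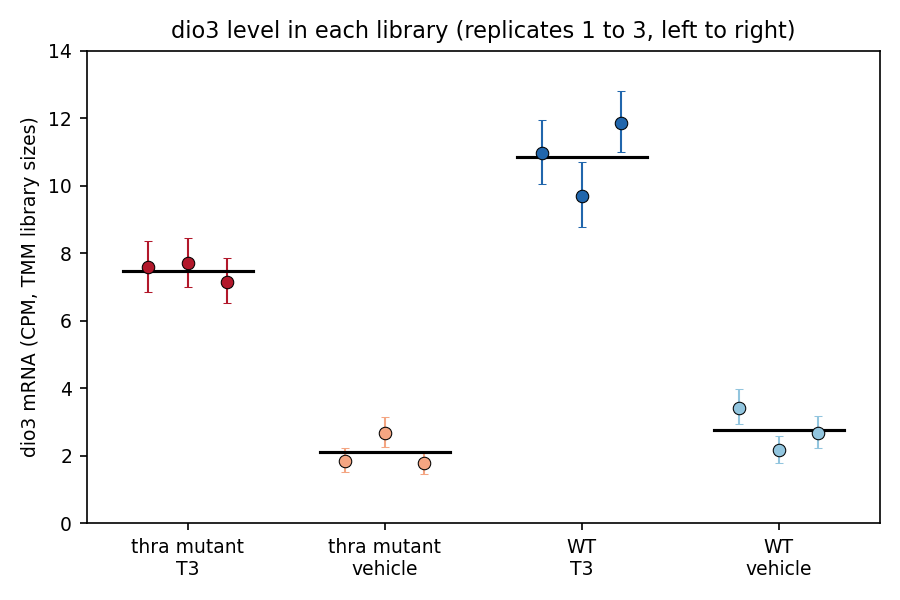
The level of dio3 mRNA (CPM, linear axis from 0) is plotted for each of the 12 libraries (thra mt-exon4 as thra mutant), with 95% Poisson intervals of the counts as bars and the mean of each group as a horizontal line. The T3 libraries sit between 7.16 and 7.70 CPM in thra mt-exon4 and between 9.69 and 11.9 CPM in WT, and all 6 vehicle libraries lie at or below 3.42 CPM.

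The induction stood high among the features tested. Ordered by p value, dio3 had rank 3 of 22018 features for T3 in thra mt-exon4, after thrb (XLOC_017285) and thibz (XLOC_028082), a bZIP transcription factor named for its induction by thyroid hormone. In WT its rank was 45. Only 0.2% of the features tested rose with T3 in thra mt-exon4 (44 features), and dio3 had the 8th largest log2 fold change among them. In WT 5.37% rose (1182 features), and dio3 was 37th. The gene was picked with its induction in both genotypes known, so these ranks are a description.

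The counts behind these values were modest. They were 384, 438 and 450 in thra mt-exon4 T3 and 107, 143 and 119 in thra mt-exon4 vehicle, and 515, 398 and 666 in WT T3 and 172, 119 and 128 in WT vehicle. Libraries held between 41012459 and 67603703 expected counts. The spread between the replicates, as SD over mean, was 3.78% in thra mt-exon4 T3 and 24.2% in thra mt-exon4 vehicle, and 10.1% in WT T3 and 22.9% in WT vehicle. Counting error alone would give 4.86%, 9.02%, 4.36% and 8.46% in the same groups. The spread was thus above counting error in both vehicle groups and in WT T3, and not in thra mt-exon4 T3.

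Per length, dio3 was a low feature. Its level in TPM, which divides by feature length and sums to the same total in each library, was 1.92, 1.95 and 1.79 in thra mt-exon4 T3 and 0.46, 0.67 and 0.44 in thra mt-exon4 vehicle. In WT it was 2.77, 2.45 and 3.03 in T3 and 0.86, 0.53 and 0.69 in vehicle. On average 17.0% of tested features had a lower TPM than dio3 in thra mt-exon4 T3 and 5.62% in thra mt-exon4 vehicle, against 21.9% in WT T3 and 6.84% in WT vehicle. These levels divide by the length of the feature, which is 13132 bases in all libraries and longer than 97.6% of the 22820 XLOC features (median 2635 bases). The dio3 gene of human and mouse has a single exon and a compact mRNA, and the deposited tables do not say which part of the feature the reads came from. That all of the counted reads came from dio3 mRNA was therefore not tested, and a TPM of this feature may understate the level of the mRNA. None of the 12 expected counts was a whole number, so some reads were shared with other features.

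The responses of both genotypes could not be distinguished on the log2 scale. The thra mt-exon4 response minus the WT response was −0.14 (standard error 0.25, 95% interval −0.68 to 0.40, adjusted p = 0.848, edgeR), at a background of 0.527% of features called in either direction. This interval allows the fold induction in thra mt-exon4 to be between 62.6% and 132% of that in WT and so leaves room for a smaller or a larger mutant induction. Permuting the genotype labels within each treatment gave an exact two-sided p of 0.7 over 400 arrangements. The null of that permutation is no genotype effect in either treatment, so it is not a test of equal responses alone. The sign of the difference turned when either of 2 vehicle libraries was left out: it was 0.01 without WT vehicle replicate 2 and 0.07 without thra mt-exon4 vehicle replicate 2. In amount of mRNA, T3 added 5.38 CPM in thra mt-exon4 (standard error 0.335) and 8.09 CPM in WT (standard error 0.730), so the mutant increment was 66.5% of the WT increment. The difference between these increments was chosen for testing after the data were seen. The same permutation gave an exact p of 0.1 over 400 arrangements. With that null it cannot decide whether the increments differ, and no conclusion is drawn from it.

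Under T3, dio3 averaged 7.48 ± 0.282 CPM in thra mt-exon4 and 10.8 ± 1.10 CPM in WT (SD, n = 3 each). The mutant mean was 69.0% of the WT mean. The groups did not overlap, as was the case for 16.9% of the features tested in that direction. The log2 fold change of −0.54 (standard error 0.16, 95% interval −0.89 to −0.18) missed the threshold of 0.05 (adjusted p = 0.0671, edgeR; 3.18% of features passed as lower and 3.7% as higher in the mutant). DESeq2 (adjusted p = 0.0176), limma-voom (adjusted p = 0.0301) and edgeR on the T3 libraries alone (adjusted p = 0.00844) called it. In either direction DESeq2 called 2677 and limma-voom 1411 of 22018 features, and edgeR on the T3 libraries alone 3134 of 21221. The main fit called 1515 of 22018. With single libraries left out the adjusted p ran from 0.0408 to 0.218, and edgeR called the difference without WT vehicle replicate 1 (adjusted p = 0.0444) or thra mt-exon4 vehicle replicate 2 (adjusted p = 0.0408).

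In vehicle, without added hormone, dio3 was at 2.10 ± 0.508 CPM in thra mt-exon4 and 2.75 ± 0.631 CPM in WT (SD, n = 3 each). These groups overlapped, since thra mt-exon4 replicate 2, at 2.68 CPM, lay above WT replicates 2 and 3. Of the features tested, 8.66% were lower without overlap in the mutant in vehicle. The log2 fold change of −0.40 (standard error 0.18, 95% interval −0.80 to 0.00) did not pass (adjusted p = 0.395, edgeR), while 0.413% of features passed as lower and 0.164% as higher in the mutant. It was not called in any of 21 alternatives. The order of the group means was thus WT T3, thra mt-exon4 T3, WT vehicle and thra mt-exon4 vehicle, and edgeR's fit of all 4 groups separated neither the T3 groups of both genotypes nor the vehicle groups. The lowest thra mt-exon4 T3 library, at 7.16 CPM, lay above the highest WT vehicle library, at 3.42 CPM, and these neighbours in the order were not tested.

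Averaged over both treatments, dio3 was lower in thra mt-exon4 by a log2 fold change of −0.47 (standard error 0.12, 95% interval −0.73 to −0.20, adjusted p = 0.0427, edgeR; 2.96% of features passed in that direction). The exact permutation of genotype within treatment gave p = 0.015 over 400 arrangements. This call was a narrow one, lost in 12 of 20 alternatives, among them limma on log2(TPM + 0.1) (adjusted p = 0.129) and log2(TPM + 1) (adjusted p = 0.0786). It was lost in 9 of 12 fits with 1 library left out, and held without WT vehicle replicate 2, WT vehicle replicate 3 or thra mt-exon4 vehicle replicate 2. The lowest of its values in these fits was −0.57 and the highest −0.37. Like the comparison under T3, the averaged comparison uses the WT T3 libraries. A response there was built into how dio3 was named, so both comparisons are a description.

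**Figure D2:**
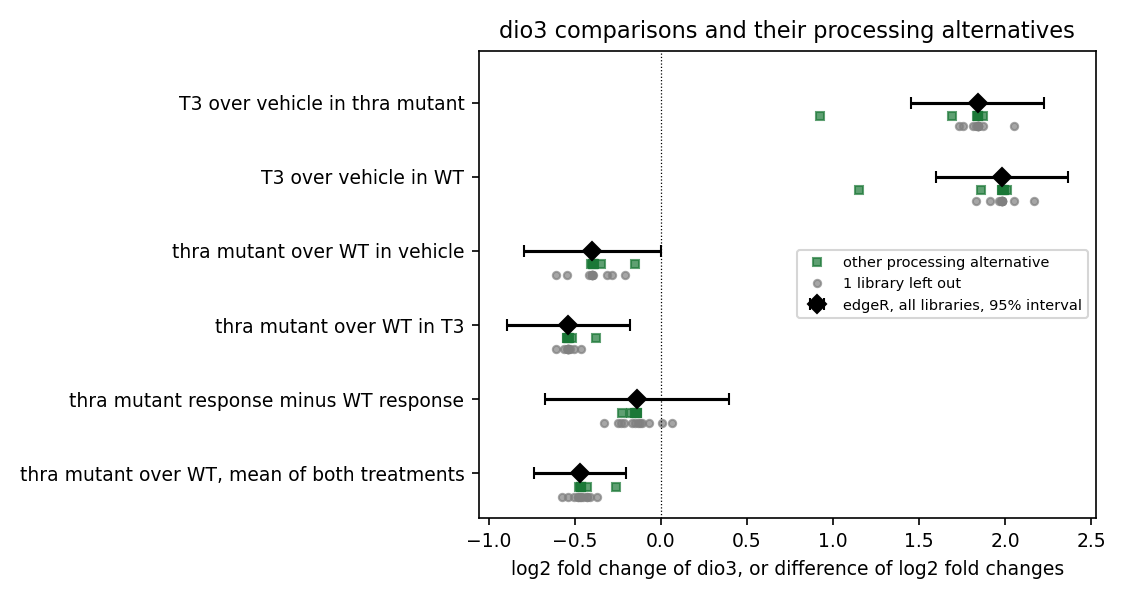
Each row is 1 comparison of dio3, with the log2 fold change (or difference of log2 fold changes) and its 95% interval from edgeR as a diamond with bars, other processing alternatives as squares, and fits with 1 library left out as circles. The 2 T3 rows keep clear of 0 at 1.84 in thra mt-exon4 and 1.98 in WT, the squares far to their left at 0.93 and 1.15 being the fits on log2(TPM + 1), and the difference of the responses straddles 0.

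Markers of neural and hypothalamic tissue were present in all groups: the 6 of 15 listed that could be matched (snap25, elavl3, slc1a3, avp, oxt and sim1) summed to between 2108 and 2188 CPM in thra mt-exon4 T3, between 2250 and 2358 CPM in thra mt-exon4 vehicle, between 2135 and 2217 CPM in WT T3 and between 2213 and 2283 CPM in WT vehicle. Most of each sum was slc1a3, snap25 and elavl3, so the sums say little about avp, oxt and sim1. In the same order of groups, oxt averaged 105, 95.4, 188 and 126 CPM. The means were 58.3, 51.8, 77.6 and 56.2 CPM for avp and 8.10, 8.61, 10.3 and 8.03 CPM for sim1. By edgeR's test 2 of the 6, elavl3 and oxt, were lower in thra mt-exon4 than in WT under T3 (adjusted p = 0.0426 and 0.00708), as were 3.18% of all features. With T3 in WT, oxt rose (log2 fold change 0.58, adjusted p = 0.0236, edgeR) and slc1a3 fell (log2 fold change −0.21, adjusted p = 0.0316, edgeR). The dissected tissue included the pituitary, but none of 8 pituitary markers could be matched to a feature. The 4 of 9 inner ear and otolith markers that could be matched (otop1, OTOL1, tecta.2 and pla2g2e) stood apart in WT T3, where they summed to 82.7 to 118 CPM, against 0.947 to 1.06 CPM in WT vehicle. In thra mt-exon4 they summed to 0.439 to 0.891 CPM in T3 and 0.759 to 2.01 CPM in vehicle. Most of the WT T3 sum was pla2g2e, with a mean of 94.1 CPM, against 4.63 for OTOL1, 2.26 for otop1 and 1.61 for tecta.2. All 4 rose in WT (5.37% of all features did), and all 4 were lower in thra mt-exon4 than in WT under T3 (3.18% did). They too were matched only through the table of genes regulated in WT, and their list was chosen with earlier results known. That they stood apart is therefore a description. Whether pla2g2e marks inner ear tissue here was not tested. Their part, and that of elavl3, oxt and slc1a3, in the WT response of dio3 and in the T3 level of the mutant was not tested.

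The other genes of the thyroid hormone pathway came from lists of 29 symbols chosen by role, of which 14 could be matched, to 15 features. Because the matching went through a table of genes regulated in WT, their WT responses, and every comparison of thra mt-exon4 with WT that uses the WT T3 libraries, are a description only. In WT 14 rose and 1 fell, where 5.37% of all features rose and 5.53% fell. In thra mt-exon4, 7 of the 15 rose with T3 and 0 fell, where 0.2% of all features rose and 0.0545% fell. Both thibz features are among the 7. Of the 1182 features that rose in WT, 30 also rose in thra mt-exon4. The lists were chosen with earlier results of these data known and matched through that table. The mutant count and median of the 15 are therefore a description too. Under T3, 8 of the 15 were lower in thra mt-exon4 and 1 was higher, where 3.18% and 3.7% of all features were. The median log2 fold change of the 15 was 0.32 in thra mt-exon4 and 0.71 in WT, compared with 0.00 and −0.02 over all features. The thra mt-exon4 response was smaller for 6 of the 15 by edgeR's test of the difference and larger for 0, where 0.354% and 0.173% of all features passed in those directions, and nothing is read from this count because the WT arm was selected.

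Features for the other deiodinases, dio1 and dio2, were not matched and were not analysed here. Among the receptors, thrb (XLOC_017285) differed between the genotypes in vehicle. It was higher in thra mt-exon4, at 27.1 ± 2.22 CPM, against 13.0 ± 0.835 CPM in WT (SD, n = 3 each, log2 fold change 1.06, adjusted p = 0.000304, edgeR). The dio3 value of −0.40 was of the opposite sign but did not pass (adjusted p = 0.395, edgeR). Whether the baselines of thrb and dio3 differ in their dependence on genotype was not tested. Under T3 thrb was lower in the mutant by a log2 fold change of −0.54 (adjusted p = 0.00307, edgeR), beside −0.54 for dio3. The T3 response of thrb in thra mt-exon4 was 48.6% of the WT response on the log2 scale, and that of dio3 was 92.9%. On the linear CPM scale the mutant increment was 50.6% of the WT increment for thrb and 66.5% for dio3, so the gap was smaller there. The gene rxrb (XLOC_025525), which encodes a partner of the receptors on DNA, had log2 fold changes of 0.07 in thra mt-exon4 and 0.35 in WT, and their difference did not pass (adjusted p = 0.219, edgeR).

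The transcription factor genes klf9 (XLOC_009053) and thibz and the metalloproteinase gene mmp11 (XLOC_003824, also called st3) are classical early or strong responders to T3 in tadpoles. For klf9 the thra mt-exon4 response was 59.7% of the WT response on the log2 scale, for thibz (XLOC_028082) 63.3%, and for mmp11 28.1%. Their differences of log2 responses were −1.61 for klf9 (95% interval −2.31 to −0.90), −2.30 for thibz (−3.10 to −1.50) and −1.64 for mmp11 (−1.95 to −1.33), while the interval for dio3 ran from −0.68 to 0.40. The klf9 difference did not pass edgeR's test (adjusted p = 0.0506), and those of thibz (XLOC_028082, adjusted p = 0.0164) and mmp11 (adjusted p = 0.000192) did. As linear CPM increments the mutant shares were 51.2% for klf9, 27.5% for thibz (XLOC_028082) and 17.0% for mmp11, beside 66.5% for dio3. In vehicle klf9 stood at 37.9 ± 4.07 CPM in thra mt-exon4 and 20.9 ± 8.99 CPM in WT (SD, n = 3 each). That vehicle difference did not pass (adjusted p = 0.146, edgeR). The WT vehicle libraries stood at 25.1, 27.0 and 10.6 CPM of klf9. Replicate 3 thus lowers the WT vehicle mean and enlarges the WT response of klf9. How far the klf9 shares and difference rest on this library was not tested. Of the 30 features that rose in both genotypes, the median share of the WT log2 response found in thra mt-exon4 was 54.9%, and dio3 had the 8th largest share. These 30, dio3 among them, were picked because they passed in both genotypes of these same data. That choice favours large mutant shares, so the median and the rank are a description only. Whether dio3 differs from any of these genes was not itself tested.

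**Figure D3:**
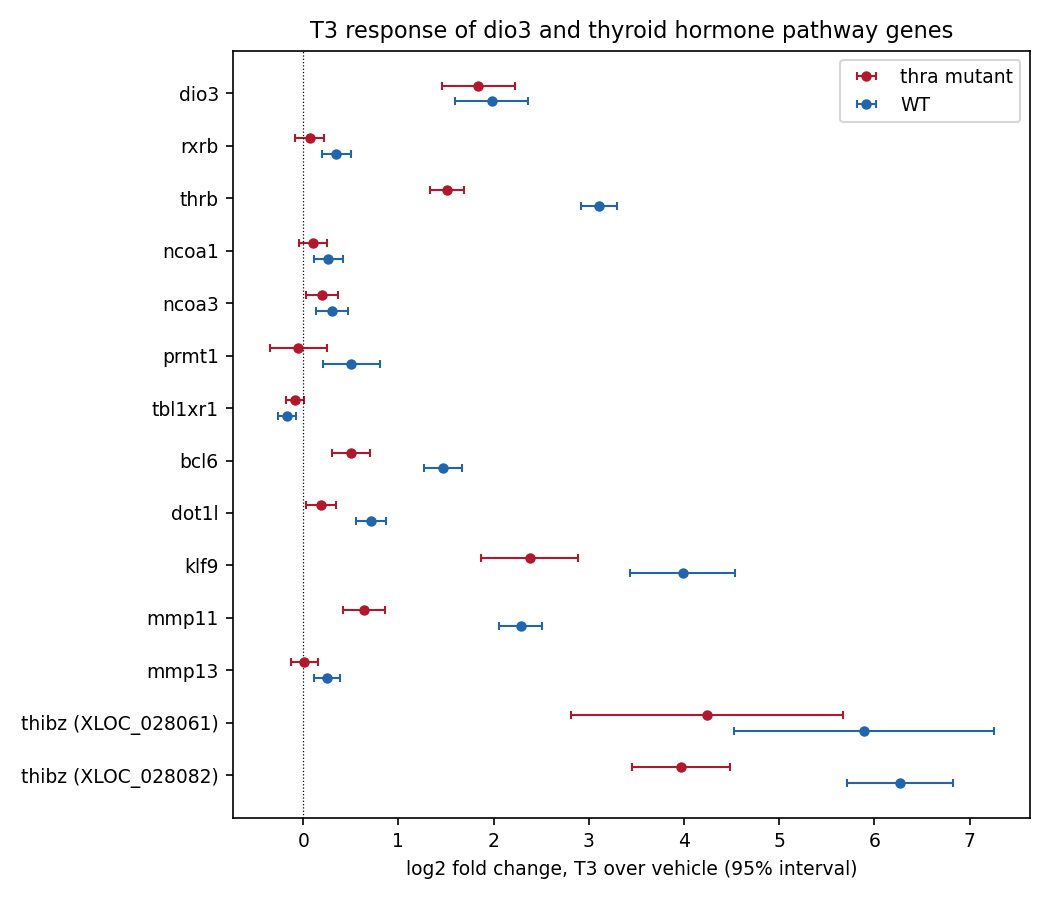
The log2 fold change of T3 over vehicle, with its 95% interval, is drawn for dio3 and 13 of the thyroid hormone pathway features, with thra mt-exon4 (red) above WT (blue) in each row. The intervals of dio3 overlap almost fully, at 1.84 and 1.98, while those of thrb, bcl6, dot1l, klf9, mmp11 and thibz (XLOC_028082) lie apart. Those of rxrb, ncoa1, ncoa3, prmt1, tbl1xr1, mmp13 and thibz (XLOC_028061) also overlap.

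The coactivator genes ncoa1, ncoa3 and prmt1 rose in WT with log2 fold changes of 0.26, 0.30 and 0.51 (5.37% of all features rose). None passed in thra mt-exon4 (0.2% rose), where the values were 0.10, 0.20 and −0.05. Their differences of log2 responses did not pass (adjusted p = 0.479, 0.728 and 0.225, edgeR), so a loss of response in the mutant is not shown. The corepressor complex gene tbl1xr1 (XLOC_019931) had the one WT decrease of the list, −0.17 (adjusted p = 0.0239, edgeR). The repressor gene bcl6 (XLOC_040863) rose in thra mt-exon4 by 0.50 (adjusted p = 0.0414, edgeR), and dot1l, a histone methyltransferase gene, and mmp13, a collagenase gene, did not pass there. In vehicle dot1l was higher in thra mt-exon4 than in WT (log2 fold change 0.37, adjusted p = 0.0408, edgeR). The difference of log2 responses passed for dot1l (−0.53, adjusted p = 0.0446, edgeR) and not for mmp13 (adjusted p = 0.265, edgeR). The second thibz feature, XLOC_028061, may share reads with the first, and its log2 fold changes were 4.24 in thra mt-exon4 and 5.89 in WT. For this feature the difference of −1.65 (95% interval −3.97 to 0.68) did not pass (adjusted p = 0.521, edgeR). Of 13 selenoproteins listed, 3 could be matched (selk, selt and txnrd3), again through the table of genes regulated in WT. All 3 rose in WT by log2 fold changes of 0.24 to 0.28 (5.37% of all features rose), and in thra mt-exon4 none passed (0.2% rose), with values of 0.05 to 0.10. For selk, selt and txnrd3 the differences of log2 responses did not pass (adjusted p = 0.534, 0.333 and 0.431, edgeR).

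Likeness to dio3 was measured as Pearson's r of log2 CPM over the 12 libraries, for 17155 features with a mean of at least 1 CPM. The 12 libraries fall into 4 groups, so r mostly reflects group means, and it is given as a description. Of these features 35 had an r of at least 0.9, and 29 of the 35 carried a symbol, symbols being known mostly for genes induced in WT. The likest of all was thibz (XLOC_028082, r = 0.952). Outside the pathway lists the 5 likest with a symbol were p2ry2 (XLOC_018292, r = 0.949), a nucleotide receptor gene, adamts10 (XLOC_024932, r = 0.947), a secreted protease gene, nacc2 (XLOC_006290, r = 0.943), a transcriptional repressor gene, strap (XLOC_001665, r = 0.942), and wdr33 (XLOC_015093, r = 0.940), an mRNA 3′ end processing gene. Around the group means the likeness was weaker, with r of the deviations between 0.22 (adamts10) and 0.55 (wdr33) for these 5 and −0.16 for thibz (XLOC_028082). The other thibz feature, XLOC_028061, had an r of 0.936 and an r of the deviations of 0.49.

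Of these 5 genes, adamts10 stood at 12.7 ± 1.37 CPM in T3 and 5.78 ± 0.325 CPM in vehicle in thra mt-exon4, and at 14.2 ± 0.481 CPM in T3 and 7.74 ± 1.57 CPM in vehicle in WT (SD, n = 3 each). It rose in both genotypes, with log2 fold changes of 1.13 in thra mt-exon4 (adjusted p = 0.00227, edgeR) and 0.87 in WT (adjusted p = 0.00178, edgeR), and the difference of 0.26 did not pass (adjusted p = 0.558, edgeR). The gene nacc2 rose by 0.72 in thra mt-exon4 and by 1.21 in WT, and under T3 it was lower in the mutant, with a log2 fold change of −0.66 (adjusted p = 0.0014, edgeR). The increases of p2ry2, strap and wdr33 passed in WT, with log2 fold changes of 0.80, 0.31 and 0.20. In thra mt-exon4 their log2 fold changes were 0.69, 0.23 and 0.25, with adjusted p values of 0.058, 0.105 and 0.0615 (edgeR). Their differences of log2 responses did not pass (adjusted p = 0.831, 0.711 and 0.819, edgeR), so a loss of response in the mutant is not shown.

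**Figure D4:**
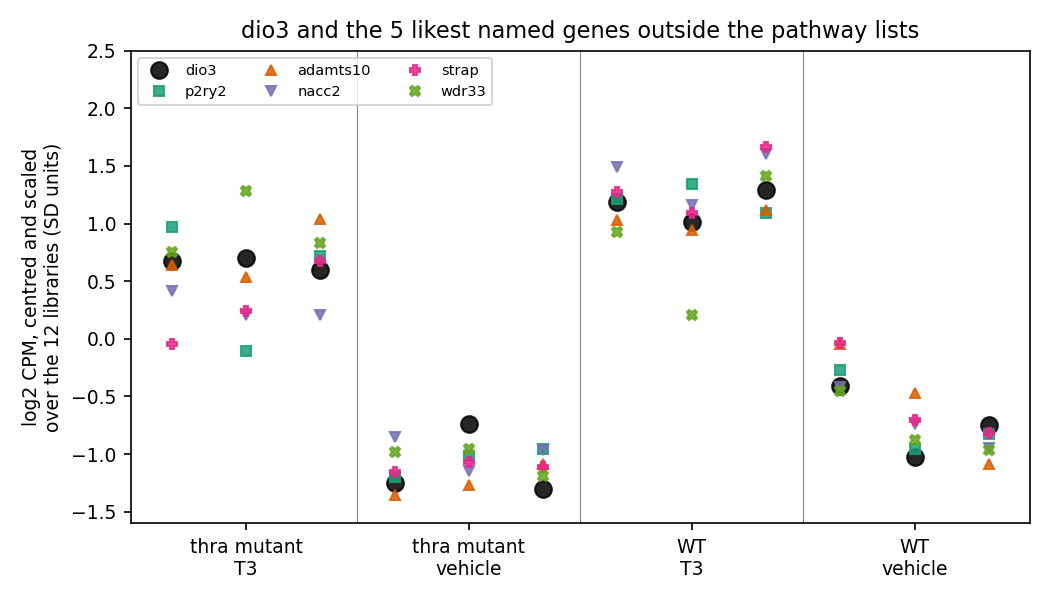
The log2 CPM of dio3 and of 5 genes with a similar profile is plotted for each library after centring and scaling over the 12 libraries, with replicates 1 to 3 from left to right in each group. All 6 genes lie higher in the WT T3 libraries than in the vehicle libraries, and in thra mt-exon4 T3 the genes spread apart, with wdr33 above dio3 and nacc2 below it.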

How the data were processed

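RNA-seq was done on 12 libraries, and genotype, treatment and replicate came from the sample labels. The authors deposited RSEM expected counts per feature, without normalization, and TPM and FPKM values and lengths per library. According to the methods, single-end reads were placed on X. tropicalis genome v4.1 by Bowtie, with the MNHN gene model for counting. The submitters' processing notes also name CASAVA 1.8.2 and cutadapt, and no RSEM version is given. The deposited FPKM values were not tested. A read that fits several features is divided among them by RSEM.

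Expected counts were rounded to whole numbers. After filterByExpr and TMM scaling, 22018 features entered 1 model of 4 group means in edgeR 4.0.16 under R 4.3.3, and contrasts were taken with its quasi-likelihood test. Adjusted p values are Benjamini-Hochberg values over all features tested within a comparison, with a threshold of 0.05. Standard errors are the log2 fold change over the root of F, and 95% intervals use the t quantile of the fit. The methods name limma, so limma-voom (limma 3.58.1) was an alternative, as were DESeq2 1.42.0, median-of-ratios size factors, no filter, the replicate number as a block, leaving out new_exon features, limma on log2(TPM + 0.1) and log2(TPM + 1), the 2 groups compared alone, and each library left out. The linear CPM scale was added after the data were seen. Log2 CPM used a prior count of 2. Poisson intervals cover counting error only. The steps were tested on simulated counts, and Python 3.11.15 with matplotlib 3.10.9 made the plots.

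The gene and the lists were chosen with earlier results of these data known. The genes named are dio3, every list gene matched to a feature except 2 that are counted with their list but not reported singly here, and the 5 likest genes with a symbol by Pearson's r outside the lists. Symbols came from the study's supplementary table of T3-regulated genes, of which only a part was used here (1554 features). It also holds the authors' fold changes and p values, which were not used. The targeted gene thra was not matched, so genotype rests on the labels. No sequence is shown because none of dio3 was among the references used here. Replicates were pools of 5 tadpoles, and no pair of replicates agreed within sampling noise (chi-square per degree of freedom 7.10 to 42.0). The highest values were those of WT vehicle replicate 3, 42.0 against replicate 1 and 31.9 against replicate 2.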

Additional observations from a re-analysis of the deposited data

How the results depend on the processing

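The T3 inductions of dio3 kept their direction and their call in all 21 alternatives in each genotype. With 1 library left out the log2 fold change ran from 1.73 to 2.05 in thra mt-exon4 and from 1.83 to 2.17 in WT, and on log2(TPM + 1), which compresses low values, it was 0.93 and 1.15. The vehicle comparison was called in none of 21 (−0.61 to −0.21 with 1 library left out). The T3 comparison of thra mt-exon4 with WT was called by DESeq2 (−0.54), limma-voom (−0.54) and the fit of the 2 groups alone (−0.54), and ran from −0.61 to −0.47 with 1 library left out. The difference of the responses was called in none of 20. It ran from −0.33 to 0.067 with 1 library left out, was above 0 without WT vehicle replicate 2 (0.01) and without thra mt-exon4 vehicle replicate 2 (0.067), and was −2.71 CPM on the linear scale. The mean genotype difference was not called on log2(TPM + 0.1) (−0.43) or log2(TPM + 1) (−0.26) and ran from −0.57 to −0.37 with 1 library left out. Replicate numbers did not pair the samples (correlation of the deviations of same-numbered libraries −0.09 to 0.07). With the replicate number as a block the mean genotype difference of −0.46 lost its call (adjusted p = 0.0762, edgeR), and the block changed no other call on dio3. The causes of these changes were not tested. Each vehicle library held 107 to 172 counts of dio3, and the replicate spread there was above counting error.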
